A study of Mus musculus with 16 samples.

Results

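The glucocorticoid-induced genes and metallothioneins are 10 genes taken here as a readout of steroid and handling state in a tissue. They were Nr3c1, Fkbp5, Tsc22d3, Klf9, Zbtb16, Sgk1, Ddit4, Errfi1, Mt1 and Mt2, taken by gene symbol from both expression tables. Nr3c1 encodes the receptor itself, and the methods name no measure of glucocorticoid level. All 10 were present among the 38933 genes of the cortical bone table and among the 21011 genes of the skeletal muscle table. The rows were taken by symbol alone, and the set of genes was drawn up with earlier results of these data known.

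Glucocorticoids such as corticosterone are released from the adrenal gland in a daily rhythm and on stress, and bind the glucocorticoid receptor, a nuclear receptor encoded by Nr3c1. The bound receptor enters the nucleus and raises transcription of a set of early target genes, many of which restrain inflammation, insulin signaling and growth. In skeletal muscle a sustained rise is known for fiber wasting, and in bone for loss of osteoblast function. Metallothioneins are small cysteine-rich proteins that bind zinc and other metals, and their genes respond to metals through the factor MTF1 and to glucocorticoids.

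Aged female C57BL/6 mice received BAY2416964 (BAY), an inhibitor of the aryl hydrocarbon receptor (AhR), or the carrier alone (VEH). Over 8 weeks the oral gavage was repeated on 5 days of each week, with a dose of 30 mg/kg BAY. All mice were 18 months old when treatment began, tissue was taken at the end of the 8 weeks, and both groups received gavage and calcein injections. RNA was sequenced from tibialis anterior muscle and from cortical bone shafts of 4 BAY-treated and 4 VEH-treated mice per tissue. The bone shafts were digested with collagenase after marrow stromal cells had been taken out. The labels do not tie a bone library to a muscle library, so no comparison was made across tissues within a mouse. In bulk tissue, fewer cells of a type and less RNA per cell cannot be told apart.

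Levels are given in CPM, the reads of a gene scaled to a common library total. Between 6131920 and 9262359 reads per library were assigned to genes in skeletal muscle and between 930307 and 6951919 in cortical bone. A level of 3 reads came to 0.324 to 0.489 CPM in skeletal muscle and to 0.432 to 3.22 CPM in cortical bone, and these limits cover counting error only. The 9 markers of muscle fibers summed to between 110438 and 184591 CPM in every muscle library. VEH replicate 3 of skeletal muscle, whose column is named as a replacement, had 328 CPM of the 7 adipocyte markers against 38.6 to 56.3 CPM in the other libraries. It was also the highest library for the markers of osteoblasts and osteocytes, which include collagen genes (149 against 22.3 to 45.3 CPM), Schwann cells (66.2 against 22.1 to 40.8 CPM), leukocytes (15.9 against 3.7 to 8.64 CPM) and osteoclasts (7.56 against 0.55 to 1.55 CPM). In cortical bone the muscle fiber markers summed to 42.2 to 39589 CPM and the 10 osteoblast and osteocyte markers to 1449 to 30065 CPM, with no marker of the latter list at 0.

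In skeletal muscle, 5 of the 9 members that could be tested were higher in BAY-treated mice at an unadjusted P value under 0.05, and none was lower. They were Zbtb16, Ddit4, Errfi1, Tsc22d3 and Sgk1, with log2 fold changes of 0.36 to 0.81. Over all 13170 genes tested in skeletal muscle, 9.29% were higher at that threshold and 3.62% were lower, or 1223 and 477 genes. With a mouse left out, 696 to 1538 genes were higher and 243 to 744 lower. The median log2 fold change was 0.36 over the 9 members and 0.05 over all genes. After Benjamini-Hochberg adjustment of the limma P values over all genes, 6 genes and none of the members were under 0.05. The count of genes was 0 to 55 with a mouse left out, 110 with the replicate block and 181 with array weights. No member had an unadjusted P value under 0.05 together with a fold change of at least 2, the calling rule of the study, and 0.364% of the genes did. This count depends on the 1 CPM added here, since with 0.1 CPM added, with the deposited values or with voom on the recovered reads Ddit4 met the rule and 178, 193 and 198 genes were called in place of 48. The paper, with limma-voom over all 21011 genes of the muscle table, reports more called genes than any of these. With VEH replicate 3 left out, 4 of 9 members were higher at P under 0.05, since Sgk1 then had a P value of 0.0764 and a log2 fold change of 0.26. The log2 fold changes without that library were 0.63 for Zbtb16, 0.82 for Ddit4, 0.59 for Errfi1, 0.35 for Tsc22d3, 0.24 for Klf9 and -0.11 for Nr3c1. The plot of the muscle levels by mouse shows every value behind these counts.

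**Figure D1:**
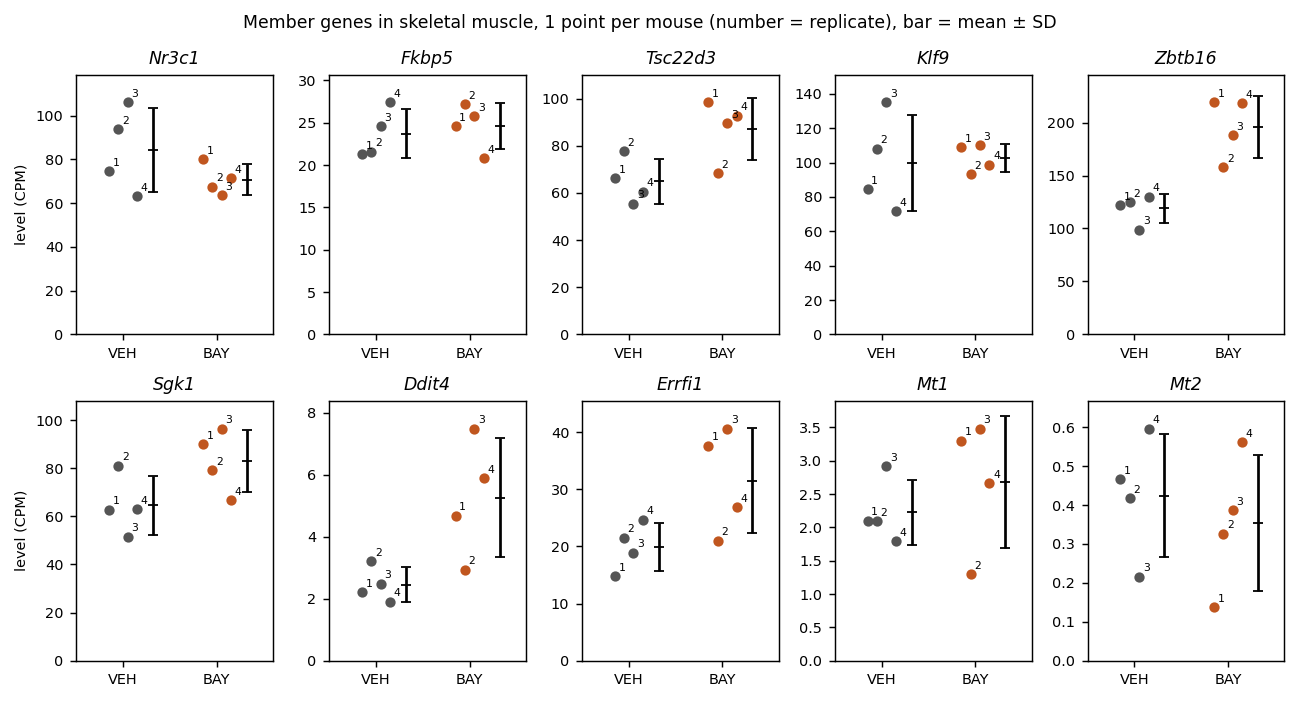
Level of each member gene in skeletal muscle, in CPM on a linear axis from 0, with 1 point per mouse, the replicate number beside it and the mean ± SD of 4 mice as a bar. The 4 BAY-treated mice lie above the 4 VEH-treated mice for Zbtb16 (158 to 219 CPM against 99 to 130 CPM), and the groups overlap for every other member.

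The glucocorticoid receptor gene Nr3c1 (ENSMUSG00000024431, chromosome 18, 39543598 to 39652475, minus strand, mm39) was at 74.5, 93.7, 106 and 63.2 CPM in skeletal muscle of VEH replicates 1 to 4 and at 80.1, 67.5, 63.7 and 71.4 CPM in BAY replicates 1 to 4. The groups overlapped, and all BAY values lay below the VEH median. The mean was 84.3 ± 19 CPM (SD, n = 4) in VEH and 70.7 ± 7 CPM (SD, n = 4) in BAY. Its log2 fold change of -0.23 (95% interval -0.56 to 0.10) did not pass the test (limma P = 0.163, adjusted P = 0.563, exact permutation P = 0.286). It had an unadjusted P value of 0.0349 without VEH replicate 4, 0.0406 with each library centred on its median and 0.0239 after quantile normalization.

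Fkbp5 (ENSMUSG00000024222, chromosome 17, 28618068 to 28736502, minus strand) encodes FKBP51, a co-chaperone that lowers the hormone affinity of the receptor and is widely used as a marker of glucocorticoid action. It was at 21.3, 21.6, 24.6 and 27.4 CPM in VEH and at 24.6, 27.2, 25.8 and 20.8 CPM in BAY. The values of both groups filled the same range. BAY differed from VEH by 0.05 on the log2 scale (95% interval -0.26 to 0.37, limma P = 0.744, adjusted P = 0.92, exact permutation P = 0.743).

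Zbtb16 (ENSMUSG00000066687, chromosome 9, 48565597 to 48747523, minus strand) encodes the zinc finger transcriptional repressor PLZF. It was at 122, 125, 99 and 130 CPM in VEH and at 219, 158, 188 and 218 CPM in BAY. Each BAY-treated mouse lay above each VEH-treated mouse, and Zbtb16 was the 1 member of the 9 without overlap, where 5.15% of all genes had no overlap with BAY higher and 1.78% with BAY lower. The log2 fold change was 0.71 with an SE of 0.14 (limma P = 7.77e-05, adjusted P = 0.0595, exact permutation P = 0.0286, the smallest that the 70 assignments of the mice can give). Over the other settings tried the adjusted P value of Zbtb16 lay between 0.011 and 0.101, and between 0.0337 and 0.249 with a mouse left out, so that its side of 0.05 depended on the setting.

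Tsc22d3 (ENSMUSG00000031431, chromosome X, 139440277 to 139501409, minus strand) encodes GILZ, a leucine zipper protein that mediates part of the anti-inflammatory action of glucocorticoids. It was at 66.2, 77.7, 55.5 and 60.5 CPM in VEH and at 98.4, 68.3, 89.5 and 92.8 CPM in BAY. In 3 of 4 BAY-treated mice the level was above every VEH-treated mouse, and BAY replicate 2 lay among them. BAY was higher by 0.42 on the log2 scale with an SE of 0.15 (limma P = 0.0112, adjusted P = 0.237, exact permutation P = 0.0571).

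Klf9 (ENSMUSG00000033863, chromosome 19, 23118590 to 23145499, plus strand) encodes a Krüppel-like transcription factor that is directly induced by the receptor. It was at 84.4, 108, 135 and 71.8 CPM in VEH and at 109, 93.1, 110 and 98.7 CPM in BAY. The BAY values lay within the VEH range, and the log2 fold change was 0.08 (95% interval -0.27 to 0.43, limma P = 0.644, adjusted P = 0.879, exact permutation P = 0.714). It turned to -0.06 without VEH replicate 4.

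Sgk1 (ENSMUSG00000019970, chromosome 10, 21758083 to 21875803, plus strand) encodes a kinase related to AKT that regulates sodium transport and protein turnover. It was at 62.7, 81, 51.6 and 62.9 CPM in VEH and at 89.9, 79.1, 96.4 and 66.6 CPM in BAY. BAY replicates 1 and 3 lay above all VEH values and replicates 2 and 4 among them. Its log2 fold change was 0.36 with an SE of 0.16 (limma P = 0.0316, adjusted P = 0.338, exact permutation P = 0.0857). The unadjusted P value was above 0.05 in 5 of the 8 fits that leave out a mouse, those without VEH replicate 1, 3 or 4 or BAY replicate 1 or 3, with P values of 0.0533 to 0.117. It was 0.0534 with each library centred on its median and 0.0764 after quantile normalization.

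Sgk1 had 6 start sites in the RefSeq promoter table, each with a window of 250 bases before to 50 bases after the start. In 1 of them a glucocorticoid response element was found, searched for as GNACA, any 3 bases and TGTNC, which reads the same on both strands. It began 188 bases before that start. The stretch of 60 bases around it (RefSeq, located on GRCm39 at chr10:21869577-21869636, plus strand, inside the annotated Sgk1 gene) is shown because it holds the receptor's recognition letters, in capitals.
Sgk1: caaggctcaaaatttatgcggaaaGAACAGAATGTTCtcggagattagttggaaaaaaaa
Over 32851 windows of that length, 0.475% held the element. Windows of Nr3c1 and Zbtb16 were not analysed here, and of the windows of Fkbp5, Tsc22d3, Klf9, Ddit4 and Errfi1 none held these letters. A match is a description of the sequence and not a measured binding site.

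Ddit4 (ENSMUSG00000020108, chromosome 10, 59785491 to 59787657, minus strand) encodes REDD1, an inhibitor of the growth kinase complex mTORC1. It was at 2.21, 3.21, 2.48 and 1.91 CPM in VEH and at 4.68, 2.94, 7.48 and 5.89 CPM in BAY, from 16 to 58 reads per library. In 3 of 4 BAY-treated mice it was above all VEH-treated mice, and BAY replicate 2 lay among them. The log2 fold change was 0.81 with an SE of 0.24 (limma P = 0.00261, adjusted P = 0.153, exact permutation P = 0.0571), the largest among the members in this tissue. That of Zbtb16 was larger without BAY replicate 3 (0.72 against 0.65 for Ddit4) and without VEH replicate 4 (0.75 against 0.74). The mean CPM in BAY was 2.14 times that in VEH, while the fold on the log2(CPM + 1) scale was 1.76, since adding 1 CPM shrinks the change of a low gene. The gene therefore met the calling rule under the settings with a smaller added value, such as voom on the recovered reads, where its log2 fold change was 1.07 (adjusted P = 0.168). It also met the rule without BAY replicate 2, with a log2 fold change of 1.02.

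Errfi1 (ENSMUSG00000028967, chromosome 4, 150938376 to 150953350, plus strand) encodes MIG6, a feedback inhibitor of the epidermal growth factor receptor. It was at 14.8, 21.5, 18.9 and 24.7 CPM in VEH and at 37.6, 21, 40.6 and 26.9 CPM in BAY. BAY replicates 1, 3 and 4 lay above all VEH values and replicate 2 among them. BAY was higher by 0.61 on the log2 scale with an SE of 0.20 (limma P = 0.00569, adjusted P = 0.194, exact permutation P = 0.0857).

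BAY replicate 2 had the lowest BAY level of Zbtb16, Tsc22d3, Ddit4 and Errfi1, that is 4 of the 5 members that were higher. It was also the library with the fewest reads in skeletal muscle, 6131920. The part of depth in these levels was not tested. Without BAY replicate 2, the same 5 members were higher at P under 0.05, with log2 fold changes of 0.81 for Zbtb16, 0.53 for Tsc22d3, 0.78 for Errfi1 and 0.38 for Sgk1.

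The metallothionein genes Mt1 (ENSMUSG00000031765, chromosome 8, 94905710 to 94906956, plus strand) and Mt2 (ENSMUSG00000031762, chromosome 8, 94899292 to 94900197, plus strand) lie next to each other. Their promoters are shown because they hold the letters of the metal response element, TGCACNC or TGCGCNC on either strand, through which MTF1 is known to act. Each stretch is the 250 bases before the RefSeq start, located on GRCm39 at chr8:94905467-94905716 for Mt1 and chr8:94898996-94899245 for Mt2, both on the plus strand. Capitals mark matches to the metal response element and, in Mt1, a match of 13 letters to the glucocorticoid response element, GGACATGATGTTC. These too are matches of letters and not measured binding sites.
Mt1: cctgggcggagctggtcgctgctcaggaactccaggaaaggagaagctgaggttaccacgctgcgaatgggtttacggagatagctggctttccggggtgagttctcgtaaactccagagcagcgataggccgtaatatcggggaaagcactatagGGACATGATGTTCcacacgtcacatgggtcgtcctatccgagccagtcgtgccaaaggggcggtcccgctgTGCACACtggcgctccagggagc
Mt2: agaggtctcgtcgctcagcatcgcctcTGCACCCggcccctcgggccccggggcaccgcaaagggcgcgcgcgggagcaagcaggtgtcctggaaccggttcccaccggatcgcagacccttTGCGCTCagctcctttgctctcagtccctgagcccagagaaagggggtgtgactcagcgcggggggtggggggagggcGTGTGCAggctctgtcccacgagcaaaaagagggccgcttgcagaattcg
Within the full window of 300 bases Mt1 had 3 matches to the metal response element and Mt2 had 4. Of all windows, 25.7% held at least 1 such match, 1.97% at least 3 and 0.517% at least 4. Among the other members with a window, Ddit4 had 1 match and Sgk1 had 1 in 1 of its 6 windows.

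Both metallothionein genes were low in skeletal muscle. Mt1 was at 2.1, 2.09, 2.92 and 1.79 CPM in VEH and at 3.3, 1.3, 3.48 and 2.66 CPM in BAY, from 8 to 27 reads per library. The groups overlapped, with the lowest value of all in BAY replicate 2. For Mt1 the log2 fold change was 0.16 (95% interval -0.34 to 0.66, limma P = 0.513, adjusted P = 0.816, exact permutation P = 0.543). It was 0.37 without BAY replicate 2 and 0.05 without BAY replicate 3. Mt2 had 4, 3, 2 and 5 reads in VEH and 1, 2, 3 and 4 reads in BAY, or 0.138 to 0.596 CPM. Its mean was under 1 CPM, so it was not among the 9 members tested, and without that filter its log2 fold change was -0.08 (limma P = 0.656, exact permutation P = 0.543). A difference in Mt2 was not detectable at this depth, while for Mt1 the interval leaves room for changes of up to 0.66 on the log2 scale. Mt1 had 3 to 24 times as many reads as Mt2 in the 8 libraries, and the highest of these ratios rested on 1 read of Mt2.

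Divided by exon length, the levels in VEH-treated muscle were 12.6 ± 1.45 CPM per kb for Zbtb16, 12.2 ± 3.41 for Klf9, 10.7 ± 2.02 for Sgk1, 10.7 ± 2.42 for Nr3c1 and 10.5 ± 1.54 for Tsc22d3 (SD, n = 4). The ranges of neighbours among these 5 genes overlapped. Errfi1 followed at 3.37 ± 0.707 CPM per kb, apart from Tsc22d3 above it and from Fkbp5 below it. Fkbp5 at 2.15 ± 0.26 and Mt1 at 1.78 ± 0.388 overlapped, and Ddit4 at 0.903 ± 0.204 and Mt2 at 0.446 ± 0.166 were each apart from their neighbours.

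**Figure D2:**
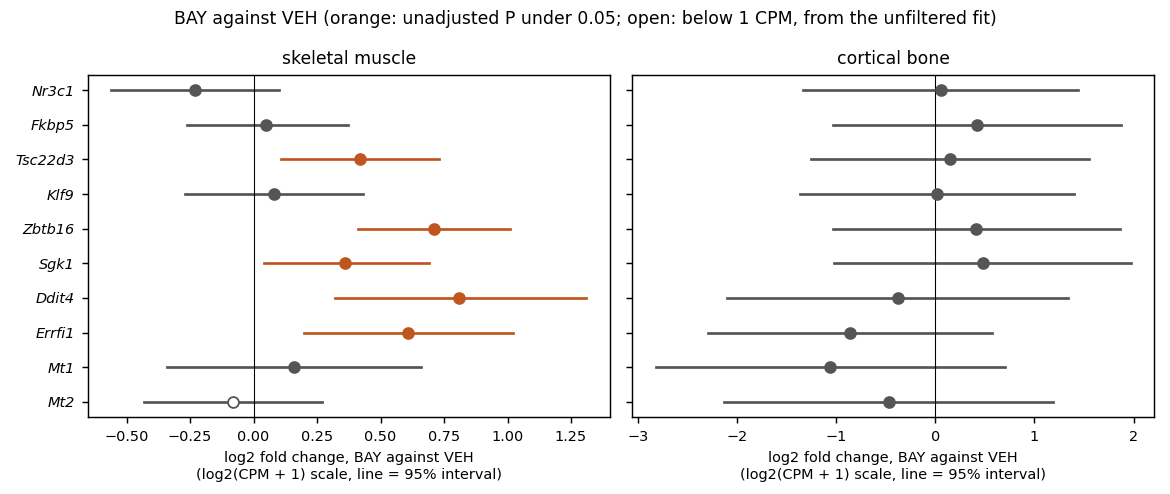
Log2 fold change of each member gene, BAY against VEH, on the log2(CPM + 1) scale, with a point for the estimate and a line for its 95% interval from limma, in skeletal muscle and in cortical bone (4 mice per group). Orange marks an unadjusted P value under 0.05, which Tsc22d3, Zbtb16, Sgk1, Ddit4 and Errfi1 had in skeletal muscle, while every interval in cortical bone contains 0. The horizontal scales of the panels differ.

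Other genes of the pathway were taken as lists, drawn up with earlier results of these data known, so their counts are a description and not independent support. Of 28 further genes known to be induced by glucocorticoids, 24 were tested in skeletal muscle, where 9 were higher and 2 lower at an unadjusted P value under 0.05 (9.29% and 3.62% of all genes). The median log2 fold change of the list was 0.13. With a mouse left out, the count of higher genes was 7 to 10 and that of lower genes 2 to 3, and it was 10 and 2 without VEH replicate 3. The 5 genes with the smallest P values were Per1, Arrdc2, Pdk4, Dusp1 and Irs2.

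Per1, a repressor of the circadian clock that also responds directly to glucocorticoids, was at 27.2, 43.2, 22.8 and 32.9 CPM in VEH and at 82.3, 41.7, 83.6 and 91.7 CPM in BAY. It was above all VEH values in 3 mice, and its log2 fold change was 1.20 with an SE of 0.22 (limma P = 2.17e-05, exact permutation P = 0.0571, adjusted P = 0.0475, with 0.000425 to 0.0967 over the other settings and 0.00217 to 0.227 with a mouse left out). The arrestin-related gene Arrdc2 was at 29.6, 38.6, 11.3 and 33.3 CPM in VEH and at 110, 43.7, 76.9 and 85 CPM in BAY, without overlap. BAY was higher by 1.51 on the log2 scale with an SE of 0.29 (limma P = 4.13e-05, adjusted P = 0.0564, exact permutation P = 0.0286). Dusp1, a phosphatase that switches off MAP kinases, rose at the unadjusted threshold from 28.9 ± 4.37 CPM in VEH to 50.6 ± 10.1 CPM in BAY (SD, n = 4), without overlap, with a log2 fold change of 0.77 (limma P = 0.000161, adjusted P = 0.0667, exact permutation P = 0.0286). Irs2, an adaptor of the insulin receptor, was at 33.8 ± 7.77 CPM in VEH and at 60.4 ± 16.4 CPM in BAY (SD, n = 4), with a log2 fold change of 0.81 (limma P = 0.000337, adjusted P = 0.093, exact permutation P = 0.0571).

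Pdk4, a kinase that inhibits pyruvate dehydrogenase and spares glucose, went the other way. It was at 68.2, 94.2, 204 and 116 CPM in VEH and at 57.5, 28.4, 51.1 and 48.5 CPM in BAY, with each BAY-treated mouse below each VEH-treated mouse. Its log2 fold change was -1.29 with an SE of 0.25 (limma P = 4.86e-05, adjusted P = 0.0582, exact permutation P = 0.0286), and it was negative with P under 0.05 in each fit that left out a mouse. VEH replicate 3, the library with the high markers of adipocytes and other cells, had the highest Pdk4 level and the lowest levels of Per1, Arrdc2, Zbtb16, Tsc22d3 and Sgk1. Without it the log2 fold change of Per1 was 1.06 and that of Arrdc2 1.13, and Pdk4 was again lower in BAY (limma adjusted P = 0.0268). The part of RNA from these other cells in these levels was not tested.

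Among the 13 genes of receptor partners, chaperones and steroid-converting enzymes, 12 were tested in skeletal muscle, with 1 higher and 1 lower at an unadjusted P value under 0.05, near the 9.29% and 3.62% of all genes. With other settings 0 to 2 were higher and 1 to 3 lower. The 3 lower genes came under median centring and quantile normalization, where 1017 and 1061 of all 13170 genes were lower against 477 without them, and with a mouse left out 0 to 2 were higher and 0 to 2 lower. The mineralocorticoid receptor gene Nr3c2, whose product also binds glucocorticoids, was at 21.5, 26.2, 22.5 and 24.6 CPM in VEH and at 34.3, 28.5, 29.3 and 29.2 CPM in BAY, without overlap. Its log2 fold change was 0.34 (limma P = 0.0264, adjusted P = 0.315, exact permutation P = 0.0286), and the unadjusted P value reached 0.0966 with a mouse left out and 0.0514 with the replicate number as a block. Ptges3, which encodes the p23 cochaperone of the receptor complex, was at 15.8 ± 5 CPM in VEH and 10.7 ± 1.96 CPM in BAY (SD, n = 4), with a log2 fold change of -0.50 (limma P = 0.0198, adjusted P = 0.289, exact permutation P = 0.0571) and of -0.31 to -0.59 with a mouse left out, where its unadjusted P value reached 0.0861. Hsd11b1, which encodes the enzyme that regenerates active glucocorticoid inside cells, was at 1.38 ± 0.965 CPM in VEH and 0.654 ± 0.249 CPM in BAY (SD, n = 4), with 1.05, 0.697, 2.81 and 0.954 CPM in VEH replicates 1 to 4. It passed the filter of 1 CPM through the VEH group and mainly through VEH replicate 3, so no test of it is given.

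Of 10 tested genes of zinc and metal handling and 9 tested genes of the oxidative stress response, 0 were higher and 0 lower at an unadjusted P value under 0.05 in limma, where 9.29% and 3.62% of all genes passed, so that these counts lie near the background for lists of this size. The median log2 fold changes were -0.11 and -0.03. With another setting or a mouse left out, 0 to 1 gene of each list was lower and 0 were higher. Of 9 genes known to be repressed by glucocorticoids, such as the inflammatory cytokines, 5 were in the muscle table and 2 passed the filter. Neither passed the test.

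The members were then compared with each other across the 8 mice of skeletal muscle. Pearson's r of log2(CPM + 1) was computed for the 36 pairs of the 9 members, and its median was 0.27, against 0.16 over all pairs of tested genes. An r of at least 0.7 was seen in 9 pairs, or 25% of them, against 7.55% of all pairs. By exact permutation of the pairings, 9 pairs had a P value under 0.05 and none had an adjusted P value under 0.05 (Benjamini-Hochberg over the 36 pairs). These pairs share mice and libraries and are not independent of each other.

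The closest pair was Tsc22d3 with Zbtb16, with r = 0.90 and a Spearman rho of 0.88 (exact permutation P = 0.00437 and 0.00724, adjusted P = 0.137 and 0.183). Without the 2 mice farthest from the median Tsc22d3 level r was 0.80, and with the group means removed it was 0.81. Tsc22d3 with Ddit4 had r = 0.86 and rho = 0.83 (exact permutation P = 0.00759 and 0.0154, adjusted P = 0.137 and 0.183), with 0.95 without the 2 farthest mice and 0.68 with group means removed. Zbtb16 with Ddit4 had r = 0.80 and rho = 0.69 (exact permutation P = 0.0202 and 0.0694, adjusted P = 0.182 and 0.227), and r fell to 0.36 with group means removed. Ddit4 with Errfi1 had r = 0.79 and rho = 0.74 (exact permutation P = 0.0202 and 0.0458, adjusted P = 0.182 and 0.183), and 0.56 with group means removed. The 5 members that were higher in BAY-treated mice formed the block of high values in the plot of correlations, with r of 0.66 to 0.90 among them. Genes that share a difference between the groups also correlate over the pooled mice. With group means removed the r of these pairs ran from 0.26, for Zbtb16 with Sgk1, to 0.81.

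**Figure D3:**
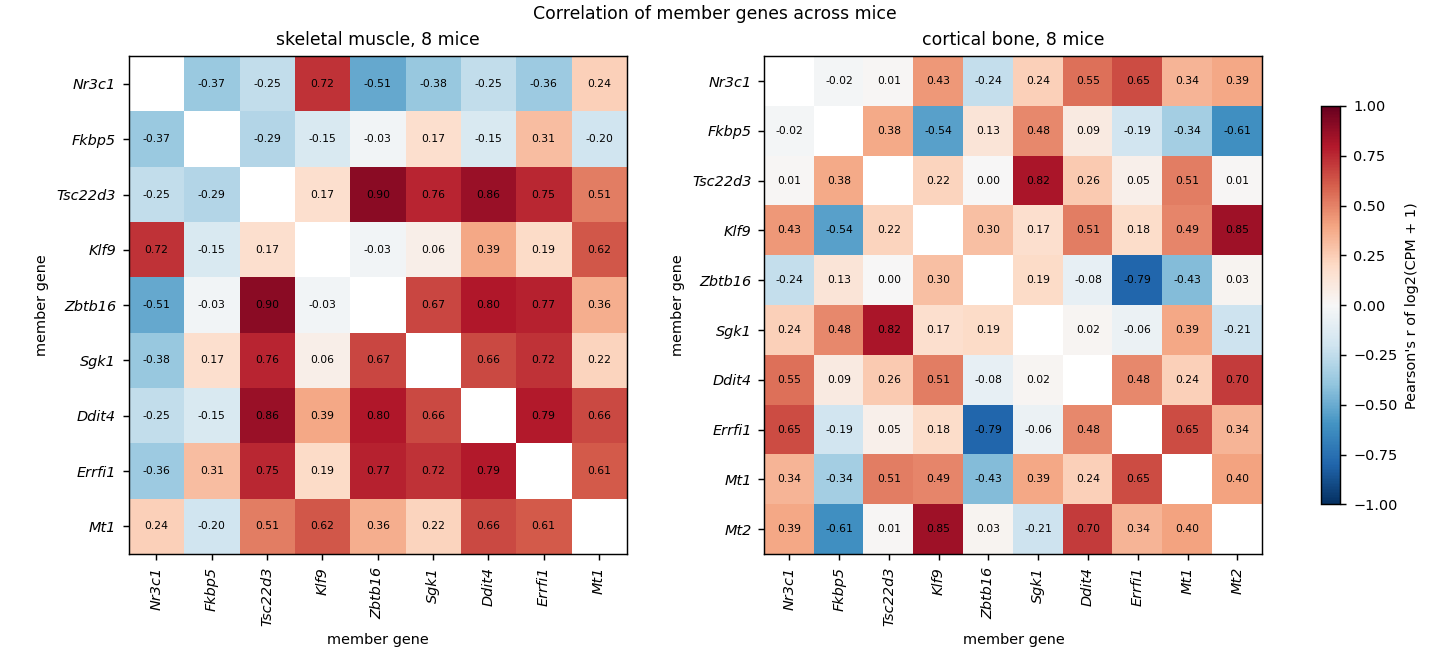
Pearson's r of log2(CPM + 1) between member genes across 8 mice, in skeletal muscle (9 members, without Mt2) and in cortical bone (10 members), on a color scale from -1 to 1. In skeletal muscle Tsc22d3, Zbtb16, Sgk1, Ddit4 and Errfi1 had r of 0.66 to 0.90 with each other, a range that includes the shared difference between the groups, and Fkbp5 had r of -0.37 to 0.31 with the other members.

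With the mean of each group removed, which takes out the difference between BAY and VEH, 3 of the 36 pairs had r of at least 0.7, or 8.33% against 9.54% of all pairs, and the median was 0.26 against 0.19. One of these was Nr3c1 with Klf9, where r was 0.72 over the 8 mice (rho 0.55, exact permutation P = 0.0445 and 0.171, adjusted P = 0.187 and 0.41) and 0.90 with group means removed. It was 0.37 without the 2 mice farthest from the median Nr3c1 level, so the relation rests on those mice. Within the VEH mice r was 0.99 and within the BAY mice 0.22, and VEH replicate 3 had the highest level of both genes. The other two were Tsc22d3 with Zbtb16 and Ddit4 with Mt1, where r was 0.66 and then 0.76. Fkbp5 had no r above 0.31 with another member. Its r with Tsc22d3 was -0.29 and was -0.64 with group means removed. The lowest r of all pairs was that of Nr3c1 with Zbtb16, -0.51 (rho -0.38, exact permutation P = 0.199 and 0.36, adjusted P = 0.448 and 0.682).

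Among 8066 other genes averaging 5 CPM or more in skeletal muscle, the genes most like Zbtb16 by r over the 8 mice were Cramp1l (0.978) and Fn3k (0.973). Those most like Tsc22d3 were Pitpnm3 (0.973) and Dip2c (0.962), and those most like Errfi1 were Itpr2 (0.990) and Coq10b (0.984). Among the genes most like Sgk1 was Trp53 (0.969) and among those most like Nr3c1 was Rab2a (0.977). Klf9 was closest to Akt1 (0.972) and Ppp2r5d (0.971), and Fkbp5 to Pttg1ip (0.975) and Tagap1 (0.948). These values are the highest of many and describe 8 libraries.

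In cortical bone no member passed the test between BAY-treated and VEH-treated mice. In limma 0 of the 10 members were higher and 0 lower at an unadjusted P value under 0.05, by limma voom on the recovered reads likewise 0, and the groups overlapped for each of the 10. Over the 35016 genes tested, 0.317% were higher and 0.0314% lower at that threshold, 0.348% met the calling rule, and 0.254% and 0.0371% had no overlap with BAY higher and lower. The SE of a member's log2 fold change in limma was 0.70 to 0.89. In limma this SE is drawn toward that of genes of like level, so it is not the spread of the member alone. By this test, changes of the size seen in skeletal muscle could not be detected here. The exact permutation test, which does not use this SE, gave P values of 0.114 or more for the members. The median log2 fold change was 0.04 over the members and 0.44 over all genes. After median centring of the libraries the latter was -0.13, and the sign of 6 members turned with it.

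The bone libraries also differed in their level of olfactory receptor genes. Olfactory receptor genes, which bone does not use, had a median level of 0.0303 CPM per kb in VEH replicate 1 and of 6.86, 1.22 and 5.36 in VEH replicates 2 to 4. It was 2.49, 2.3, 2.34 and 8.5 CPM per kb in BAY replicates 1 to 4, over 1355 such genes, and 0.0284 to 0.0679 in skeletal muscle, where 43 were listed. The members were therefore set against this level in each library. All 10 were at least 3 times it in VEH replicate 1, 7 in VEH replicate 3, and 3, 2 and 4 in BAY replicates 1, 2 and 3. In VEH replicates 2 and 4 and in BAY replicate 4, 0 of the 10 were. The plot of members over the olfactory receptor level shows these libraries beside each other.

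**Figure D4:**
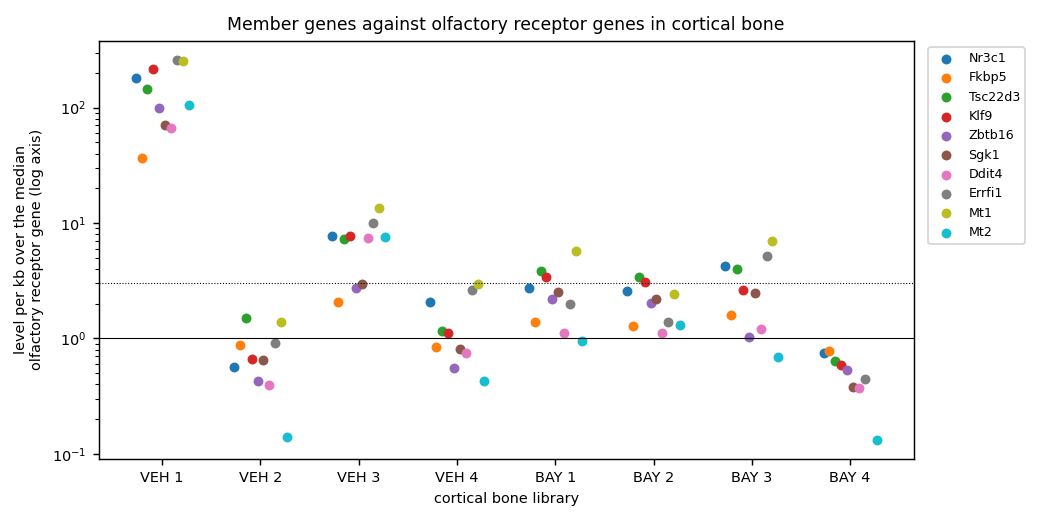
Level per kb of each member gene in cortical bone divided by the median level per kb of 1355 olfactory receptor genes in the same library, on a log axis, for 8 libraries. The solid line marks 1 and the dotted line 3, Mt1 in BAY replicate 4 is at 0 reads and not drawn, and the median member stands at 125 in VEH replicate 1 and at 0.493 in BAY replicate 4.

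Nr3c1 in cortical bone was at 42.7, 30.4, 74.1 and 87.4 CPM in VEH and at 53.2, 47.1, 78.4 and 50.5 CPM in BAY. The BAY values lay within the VEH range, with a log2 fold change of 0.06 (95% interval -1.33 to 1.44, limma P = 0.934, adjusted P = 1, exact permutation P = 0.857). Fkbp5 was at 12.2, 66.3, 28 and 49.5 CPM in VEH and at 38.4, 32.7, 41.2 and 73.1 CPM in BAY. Its lowest value was in the library with the lowest olfactory receptor level and its highest values in the libraries with the highest, and it stood at 0.777 to 2.07 times that level in the 7 libraries other than VEH replicate 1. For Fkbp5 the log2 fold change was 0.42 (95% interval -1.03 to 1.87) and was -0.03 without VEH replicate 1.

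Tsc22d3 was at 27.2, 63.5, 54.9 and 38.6 CPM in VEH and at 59.5, 48.8, 58.1 and 33.3 CPM in BAY, and Klf9 at 53.5, 37.7, 78.3 and 49.5 CPM in VEH and 70.2, 57.9, 50.4 and 40.8 CPM in BAY. Their log2 fold changes were 0.15 (95% interval -1.25 to 1.55) and 0.02 (95% interval -1.36 to 1.40). For both genes the BAY values lay within the VEH range. Zbtb16 was at 28.2, 27.6, 31.2 and 27.7 CPM in VEH and at 51.4, 43.8, 22.4 and 43 CPM in BAY. In 3 of 4 BAY-treated mice it was above all VEH-treated mice, and in BAY replicate 3 below them. Its log2 fold change was 0.41 (95% interval -1.03 to 1.86, limma P = 0.573, adjusted P = 1, exact permutation P = 0.143). BAY replicates 1 and 2 were the bone libraries with the most muscle fiber RNA, 36423 and 39589 CPM against 42.2 to 9566 CPM in the other libraries. BAY replicate 4, with 43 CPM of Zbtb16, had 91.2 CPM of these markers, and VEH replicate 1, with 28.2 CPM of Zbtb16, had 9566 CPM. The log2 fold change was 0.28 without BAY replicate 1 and 0.35 without BAY replicate 2, it was 0.66 without BAY replicate 3, and it was not fitted without both BAY replicates 1 and 2. The part of muscle RNA in the Zbtb16 level of bone was not tested.

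**Figure D5:**
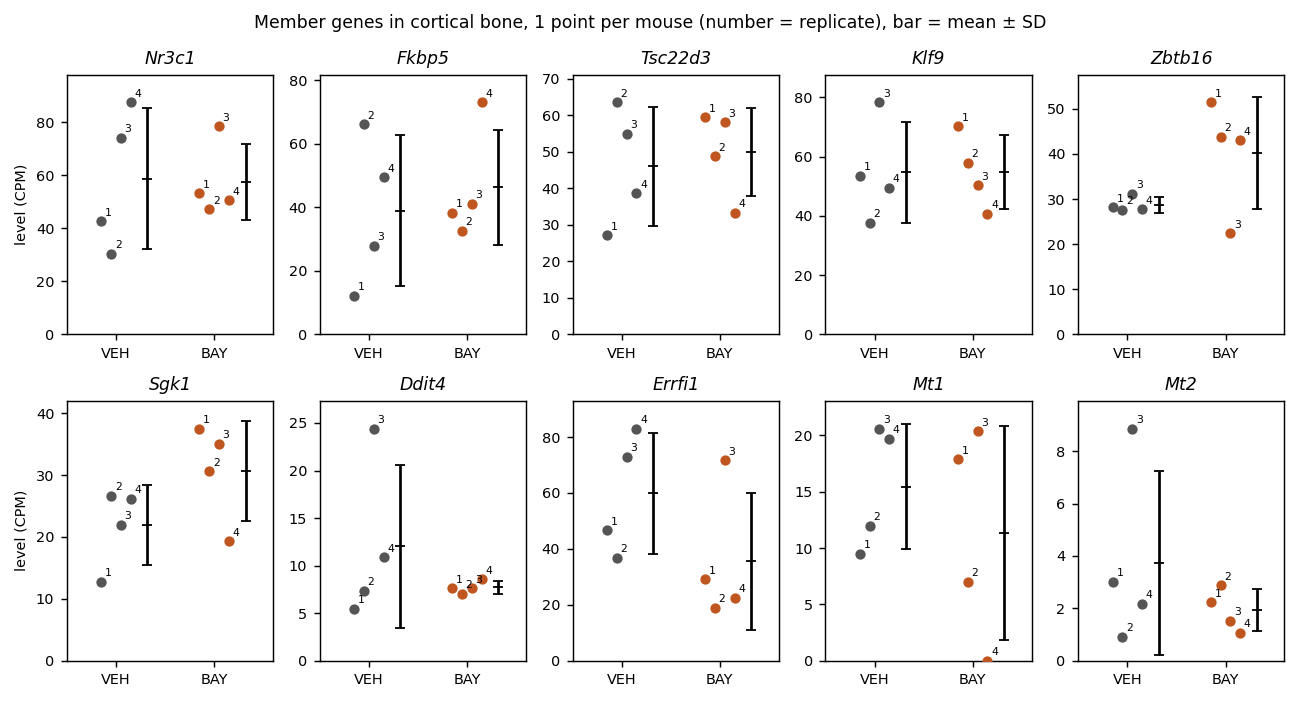
Level of each member gene in cortical bone, in CPM on a linear axis from 0, with 1 point per mouse, the replicate number beside it and the mean ± SD of 4 mice as a bar. The groups overlap for all 10 members, and Zbtb16 varies little among VEH-treated mice (27.6 to 31.2 CPM).

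Sgk1 was at 12.8, 26.7, 22 and 26.2 CPM in VEH and at 37.5, 30.6, 35.1 and 19.3 CPM in BAY, with 3 of 4 BAY-treated mice above all VEH-treated mice. Its log2 fold change was 0.48 (95% interval -1.02 to 1.97, limma P = 0.529, adjusted P = 1, exact permutation P = 0.171), and 0.25 without VEH replicate 1. Ddit4 was at 5.47, 7.36, 24.4 and 10.9 CPM in VEH and at 7.6, 7.03, 7.64 and 8.6 CPM in BAY. Its negative log2 fold change of -0.38 (95% interval -2.10 to 1.34) rested on VEH replicate 3 and was 0.01 without it. Errfi1 was at 46.7, 36.8, 73 and 83 CPM in VEH and at 29.1, 19, 71.8 and 22.6 CPM in BAY. In 3 of 4 BAY-treated mice it was below all VEH-treated mice, and the log2 fold change of -0.86 did not pass the test (95% interval -2.29 to 0.57, limma P = 0.234, adjusted P = 1, exact permutation P = 0.114). With median centring it was -1.43 (adjusted P = 0.956 in limma), and that of Ddit4 was -0.95. The osteoblast and osteocyte markers summed to 22008 CPM in BAY replicate 3 and to 1683 to 2212 CPM in the other BAY libraries, and their part in the Errfi1 levels was not tested. Without BAY replicate 3 the log2 fold change of Errfi1 was -1.26 (limma adjusted P = 0.993).

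Neither metallothionein passed the test in cortical bone. Mt1 was at 9.49, 12, 20.6 and 19.7 CPM in VEH and at 17.9, 7.03, 20.4 and 0 CPM in BAY. The 0 in BAY replicate 4, the shallowest library, allows up to 3.22 CPM. For Mt1 the log2 fold change was -1.06 (95% interval -2.82 to 0.70, limma P = 0.237, adjusted P = 1, exact permutation P = 0.429) and -0.08 without BAY replicate 4. Because of the library at 0 reads it moved with the added value, to -1.87 with 0.1 CPM added and -4.36 with the deposited values, and it was -1.63 with median centring. Mt2 had 21, 1, 25 and 3 reads in VEH and 5, 7, 3 and 1 reads in BAY, with a log2 fold change of -0.47 (95% interval -2.13 to 1.19, limma P = 0.576, adjusted P = 1, exact permutation P = 0.514). It was -0.03 without VEH replicate 3 and -1.04 with median centring.

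Per kb of exon, the mean over VEH-treated bone was highest for Mt1 at 12.4 ± 4.43 CPM per kb, followed by Errfi1 at 10.1 ± 3.66, and lowest for Zbtb16 at 3.05 ± 0.181 (SD, n = 4). Each gene overlapped with its neighbour in this order, which pools libraries with high and low olfactory receptor levels. In VEH replicate 1, where that level was lowest, Errfi1 was at 7.9, Mt1 at 7.62 and Zbtb16 at 3 CPM per kb, and Sgk1 at 2.13, Ddit4 at 2.01 and Fkbp5 at 1.1 CPM per kb lay below Zbtb16. In VEH-treated muscle Zbtb16 was the highest member, at 12.6 ± 1.45 CPM per kb, and Mt1 was at 1.78 ± 0.388. The tables were normalized separately, and these levels were not tested against each other.

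Of the other lists in cortical bone, 0 genes were higher and 0 lower at an unadjusted P value under 0.05 in limma among 28 further glucocorticoid-induced genes, 13 genes of the receptor machinery, 9 glucocorticoid-repressed genes, 14 genes of metal handling and 10 genes of the oxidative stress response. Of all 35016 genes tested in bone, 0.317% were higher and 0.0314% lower at that threshold, so that counts of 0 in lists of this size lie at the background. Under the alternatives that converged, at most 1 gene of a list passed in either direction, while the count over all genes reached 1348 higher with voom and 2718 higher without VEH replicate 2. Nr3c2 had a log2 fold change of -0.12 (adjusted P = 1) and Hsd11b1 of 0.50 (limma P = 0.568, adjusted P = 1, exact permutation P = 0.657).

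Across the 8 mice of cortical bone, the 45 pairs of the 10 members had a median r of 0.22, against 0.72 over all pairs of tested genes, and 3 pairs, or 6.67%, had r of at least 0.7 against 52.3% of all pairs. By exact permutation 4 pairs had a P value under 0.05 and none an adjusted P value under 0.05 (Benjamini-Hochberg over the 45 pairs). Klf9 with Mt2 had the highest r, 0.85 (rho 0.88, exact permutation P = 0.00362 and 0.00724, adjusted P = 0.163 and 0.163), with 0.64 without the 2 farthest mice. This pair rests on low counts, since Mt2 had 1 to 25 reads per bone library. Tsc22d3 with Sgk1 had r = 0.82 (rho 0.76, exact permutation P = 0.0117 and 0.0368, adjusted P = 0.263 and 0.276), which rested on the 2 farthest mice, since r was 0.28 without them. Zbtb16 with Errfi1 had the lowest, -0.79 (rho -0.62, exact permutation P = 0.0263 and 0.115, adjusted P = 0.39 and 0.575). Tsc22d3 with Zbtb16, the closest pair in skeletal muscle, had r = 0.00 in cortical bone. Whether these values differ between the tissues was not tested.

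The genes most like each member across the bone libraries are the highest of many, where 52.3% of all pairs of tested genes had r of at least 0.7. For Fkbp5 they were Cct3 (r = 0.999) and Tlr3 (r = 0.998), among 23951 genes averaging 5 CPM or more. Outside VEH replicate 1, Fkbp5 stood at only 0.777 to 2.07 times the olfactory receptor level. The part of that level in these values of r was not tested. Errfi1 was closest to Creb3l1 (0.985), a factor of bone matrix secretion, and Rab5c (0.976), Nr3c1 to Nub1 (0.983) and Capn7 (0.982), and Mt1 to H2bc8 (0.959) and Flywch1 (0.942). Klf9 was closest to Gadd45g (0.966) and Acta2 (0.921), Zbtb16 to Ccdc91 (0.943) and Coro6 (0.923), Ddit4 to Otud1 (0.937) and Id1 (0.936), Sgk1 to Rmnd5a (0.955) and Tbc1d1 (0.954), and Tsc22d3 to Slc6a8 (0.975) and Plekhm2 (0.939).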

How the data were processed

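Per the labels and the methods, the authors aligned trimmed reads with STAR (version 2.7.8a) to mm39, quantified Ensembl genes with Partek, scaled them to CPM and deposited the log2 of CPM plus an offset. This offset was 0.0001 in cortical bone and 0.0004 in skeletal muscle. Samples were grouped by the tissue and treatment in their titles, with 1 library per mouse per the methods.

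The log2 and offset were undone and 1 CPM was added, because the deposited offset is far below 1 read and puts a gene at 0 far from a gene at 1 read. Genes averaging 1 CPM or more over the 8 libraries were tested with limma (version 3.58.1, lmFit and eBayes with a trend, two-sided) in R (version 4.3.3), each tissue apart, with Benjamini-Hochberg adjustment over all genes tested. Exact permutation tests and correlations used Python (version 3.11.15) with scipy (version 1.17.1), and the smallest P value for 4 against 4 mice is 0.0286. Reads were recovered from the steps between low values, of which 81.3% to 88.5% came out whole to within 0.02. Exon lengths came from GENCODE M39 and promoter windows from RefSeq, used for 8 of the 10 members; sequences were located on GRCm39 by exact match.

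All 10 members are named. Of each list, the 5 genes with the smallest P values under 0.05 are named, with Nr3c2 and Hsd11b1 in any case, and for each member averaging 5 CPM or more the 2 genes with the highest r. A few genes named by this rule are not reported here. The members and lists were chosen with earlier results of these data known.

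The alternatives were an added value of 0.1 CPM, the deposited values, no filter, median centring, quantile normalization, voom on recovered reads, array weights, a block for the replicate number, each mouse left out, and for correlations the removal of group means.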

Additional observations from a re-analysis of the deposited data

Results flagged for a closer look

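Zbtb16 in cortical bone of VEH-treated mice had 1 library apart from the others. The value of VEH replicate 3, 31.2 CPM, was separated from 28.2 CPM in the nearest mouse by a gap of 0.830 of the range of the group on the log2(CPM + 1) scale, just above Dixon's critical value at 95% for 4 samples. The 4 values of Zbtb16 spanned 27.6 to 31.2 CPM, a narrow range. Of 40 groups of 4 mice examined, this was the 1 marked, and chance marks about 5% of groups.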

How the results depend on the processing

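In skeletal muscle, the number of members higher at P under 0.05 was 4 to 5 under every alternative and with every mouse left out, and no member's sign turned except that of Klf9, between -0.06 and 0.24 with a mouse left out. The number lower was 1, Nr3c1, with median centring and with quantile normalization (0 to 1 with a mouse left out). The number that met the calling rule was 1, Ddit4, with 0.1 CPM added, with the deposited values and with voom (0 to 1 with a mouse left out). This rule called 48 of all genes in skeletal muscle, 178 with 0.1 CPM added, 193 with the deposited values, 198 with voom and 44 to 78 with a mouse left out, lowest and highest. At P under 0.05, 1223 genes were higher and 477 lower, against 1077 and 1017 with median centring and 1099 and 1061 with quantile normalization. In cortical bone the rule called 122 genes, 195 without the filter, 432 with median centring (41 higher and 391 lower, against 111 and 11), 358 with quantile normalization, 1350 with voom, 231 with the replicate block and 61 to 2809 with a mouse left out, the latter without VEH replicates 3 and 2. With median centring the bone log2 fold changes turned to -0.52 for Nr3c1, -0.15 for Fkbp5, -0.42 for Tsc22d3, -0.55 for Klf9, -0.16 for Zbtb16 and -0.10 for Sgk1, and with quantile normalization to -0.05 for Tsc22d3. Those of Errfi1 and Ddit4 were -1.43 and -0.95 with median centring. With a mouse left out they ran from -0.21 to 0.29 for Nr3c1, -0.03 to 0.75 for Fkbp5, -0.07 to 0.33 for Tsc22d3, -0.14 to 0.21 for Klf9 and -0.65 to 0.01 for Ddit4. The cause of these shifts was not tested. Mice with the same replicate number are different animals. Their deviations from the group means correlated at -0.10 to 0.04 in skeletal muscle and at 0.07, -0.08, 0.49 and 0.19 for replicates 1 to 4 in cortical bone, so that replicates 3 and 4 of bone, and not 1 and 2, correlated best with their own number. The replicate block changed no call of a member at P under 0.05, while the adjusted P value of Zbtb16 in skeletal muscle was 0.0216 with it. Array weights in cortical bone, fitted with limma, stopped before convergence with weights of 0.0927 to 12.4. That fit called 9536 genes, 1035 higher and 8501 lower, and was not used for the members or lists. Depth limits Mt2, Mt1 and Ddit4 in skeletal muscle. In cortical bone, 10 of the 10 members reached 3 times the olfactory receptor level in VEH replicate 1. In VEH replicates 2 and 4 and in BAY replicate 4, 0 of the 10 did. The part of that level in the members' values was not tested.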
